A study of Xenopus laevis with 17 samples.

Results

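Centrins and the delta-, epsilon- and gamma-tubulins were followed in Xenopus laevis ectoderm that had been driven towards the multiciliated fate. The members were all gene models whose name in the deposited RNA files began with CETN1, CETN2, CETN3, TUBD1, TUBE1 or TUBG1. There were 9 such models among the 24383 listed: 3 for CETN2, 2 each for CETN3 and TUBG1, and 1 each for TUBD1 and TUBE1. No model was named CETN1. RefSeq's names for the later X. laevis v10.1 assembly list cetn1.L, cetn1.S (with cetn2 among its synonyms) and cetn4.L (with centrin2 among its synonyms), but no cetn2, so the split of the CETN1 and CETN2 names differs between sources. Here the names are those of the deposited models, each given with its scaffold.

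Multiciliated cells build many centrioles at once, dock them at the apical surface as basal bodies and grow a cilium from each. Centrins are small calcium-binding proteins of the centriole lumen and distal end, and centrin-2 is also a subunit of the XPC DNA repair complex and of the TREX-2 mRNA export complex. Gamma-tubulin nucleates microtubules from a ring-shaped complex at centrosomes and basal bodies. Delta- and epsilon-tubulin are the rare tubulins needed to form or keep the outer microtubules of the centriole's triplets, as shown in Chlamydomonas, ciliates and mammalian cells.

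All RNA came from animal caps, the ectoderm cut from the embryo's animal pole at stage 10, with 20 caps per condition. Every RNA group had received Multicilin mRNA. Multicilin (MCIDAS) is a coiled-coil regulator that starts the multiciliated programme, and it was supplied as a fusion with the human glucocorticoid receptor (MCIDAS-HGR in the labels of the controls), made active by adding 20 µM dexamethasone at mid-stage 11. Caps were collected after 9 h at 22 °C (stage 18). The groups were Foxj1 CRISPR (Cas9 protein and foxj1 gRNA, n = 2), Foxn4 CRISPR (Cas9 protein and foxn4 gRNA, n = 2), Foxn4 morpholino (an antisense oligonucleotide, n = 2) and the Multicilin control (no Cas9, guide or morpholino in its labels, n = 3). Foxj1 and Foxn4 are forkhead transcription factors, and the comparison asks which transcripts depend on each of them in cells given Multicilin. The controls were libraries taken over from an earlier study, so in any comparison with them the study, the added Cas9 or oligonucleotide and the perturbation cannot be told apart. Comparisons among the 3 perturbed groups stay within a study, but those of the morpholino with a CRISPR group still differ in reagent, an oligonucleotide against Cas9 with a guide. Nothing in the labels says that replicates were separate clutches, so a p-value here speaks only of how far these libraries scattered, some of which may be technical. Foxn4 binding was measured by ChIP-seq in caps given Foxn4-GFP-HGR with Multicilin (n = 1) or Foxn4-GFP-HGR alone (n = 1).

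Estimated counts per library totalled 8265823 to 22041340. In every group no marker of the multiciliated list used here was at 0 in all libraries (19 of 22 symbols found). Control replicate 2 stood apart from the other controls: its summed level of 27 multiciliated models was 11063 CPM (the count relative to the library's scaled total), against 18688 and 20974 CPM in control replicates 1 and 3. The 3 FOXJ1 and 2 FOXN4 models were not called changed in any comparison, and neither a guide nor a morpholino need lower the transcript, so these values do not check the labels. Of 2 MCIDAS models, whose reads may include the injected mRNA, 1 had 1089.7 to 1560.2 CPM over the perturbed libraries, against 465, 128 and 717 CPM in control replicates 1, 2 and 3. That model was higher in Foxj1 CRISPR and morpholino caps than in controls (log2 1.65 and 1.63, adjusted p = 0.0270 and 0.0259) and the other model was not called. Control replicate 2 had the least, and the part of this level in the results below was not tested. All levels below are CPM scaled by edgeR's TMM factors, and all tests are edgeR's quasi-likelihood test with Benjamini-Hochberg adjustment over the 19058 models that passed the low-count filter. All 9 members passed it. A model is called higher or lower where the adjusted p is under 0.05.

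TUBD1 and TUBE1, the transcripts of delta- and epsilon-tubulin, both had their lowest levels in Foxj1 CRISPR caps. TUBD1 was also lower in Foxn4 morpholino caps than in controls. TUBD1 (scaffold 137317, 1535908 to 1551659, plus strand, of the v7.1 scaffold assembly) had 6.58 and 8.83 CPM in Foxj1 CRISPR caps, 23.7 and 28.3 CPM in Foxn4 CRISPR caps, 16.7 and 15.2 CPM in Foxn4 morpholino caps, and 49.2, 30.8 and 61.4 CPM in controls. No library of a perturbed group reached the lowest control, and the 4 groups did not overlap each other. TUBD1 fell in Foxj1 CRISPR caps, with a log2 fold change over control of -2.61 ± 0.34 (SE) and an adjusted p of 0.000472, which leaves 16.4% of the control level. It also fell in Foxn4 morpholino caps, by 1.57 ± 0.32 on the log2 scale (adjusted p = 0.00372), to 33.8% of the control level. In Foxn4 CRISPR caps the log2 fold change was -0.86 ± 0.31, with an adjusted p of 0.0735 and a 95% interval of -1.55 to -0.16. Without control replicate 2 that change was -1.08 and was called (adjusted p = 0.0148). In bulk RNA, fewer multiciliated cells and less transcript per cell cannot be told apart. The summed multiciliated markers were also lowest in Foxj1 CRISPR caps. They came to 8417 and 9050 CPM in Foxj1 CRISPR caps and 13034 and 13035 CPM in Foxn4 CRISPR caps. Foxn4 morpholino caps had 10079 and 11589 CPM, and controls 11063 to 20974 CPM. The summed markers did not follow TUBD1 in every library. Control replicate 2, at 11063 CPM, lay below both Foxn4 CRISPR libraries in this sum and above both in TUBD1. That depends on the summary used. By the median log2 deviation of the same 27 models, control replicate 2, at 0.429, lay above both Foxn4 CRISPR libraries, at 0.175 and 0.311. By that median the 4 groups lay in the same order as by TUBD1, again without overlap. The part of the markers in the TUBD1 result was not tested.

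TUBE1 (scaffold 275342, 3057731 to 3078086, plus strand) had 19.7 and 20.4 CPM in Foxj1 CRISPR caps, 53.9 and 46.9 CPM in Foxn4 CRISPR caps, 38.1 and 54.8 CPM in Foxn4 morpholino caps, and 63.3, 38.5 and 83.8 CPM in controls. The Foxj1 CRISPR libraries lay below all other libraries, and both Foxn4 groups lay within the range of the controls or close to its lower end. TUBE1 fell in Foxj1 CRISPR caps by 1.63 ± 0.34 on the log2 scale (adjusted p = 0.00441), to 32.4% of the control level. The log2 fold change was -0.30 ± 0.32 in Foxn4 CRISPR caps (adjusted p = 0.529, 95% interval -1.01 to 0.42) and -0.41 ± 0.32 in Foxn4 morpholino caps (adjusted p = 0.319, 95% interval -1.13 to 0.30). Both intervals reach from a fall of about 1 log2 unit to a small rise.

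Most reads assigned to the rare tubulins were unambiguous. Of the estimated TUBE1 reads, 97.0 to 99.6% matched no other model. Of all reads matching TUBE1, 75.6 to 98.2% were assigned to it. The TUBE1 log2 fold change in Foxj1 CRISPR caps was -1.40 with all matching reads and -1.59 with uniquely matching reads, called in both. For TUBD1, 99.4 to 100% of the estimated reads matched no other model, and 98.1 to 100% of all matching reads were assigned to it. That bears on a neighbour: RPS6KB1, the S6 kinase gene, lies on the opposite strand and its span overlaps that of TUBD1 by 2976 bp, while the libraries were not stranded. RPS6KB1 had 91.1 and 77.2 CPM in Foxj1 CRISPR caps, against 43.6, 58.3 and 39.9 CPM in controls. It was thus higher in Foxj1 CRISPR caps (log2 0.83, adjusted p = 0.0326), the direction opposite to TUBD1.

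**Figure D1:**
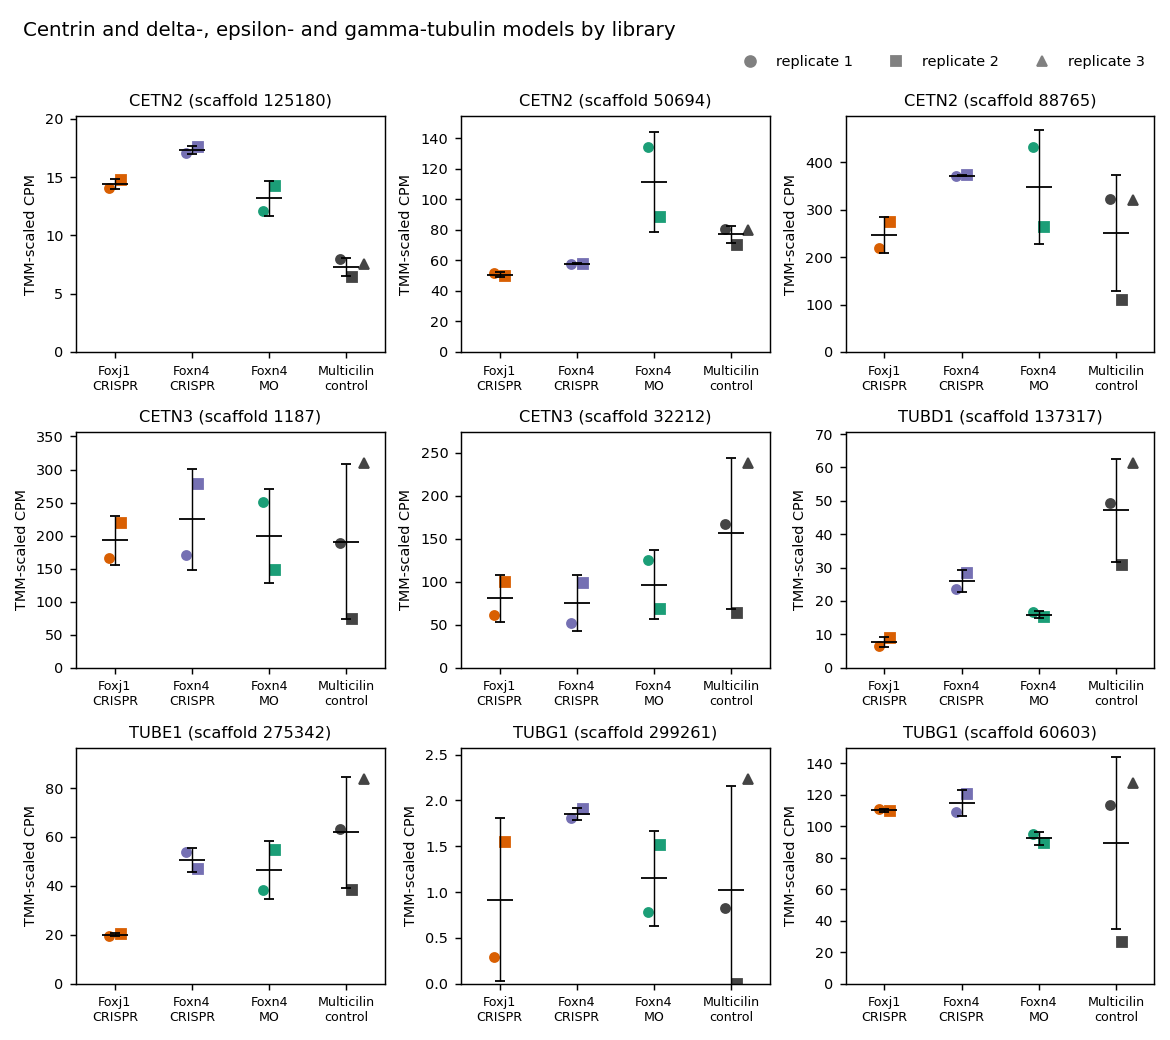
TMM-scaled CPM of each of the 9 gene models (y axis, from 0) in the 9 RNA libraries, by group (x axis); symbols mark replicates, horizontal bars the group mean and whiskers 1 SD, cut at 0 for TUBG1 on scaffold 299261. TUBD1 and TUBE1 are lowest in Foxj1 CRISPR caps, CETN2 on scaffold 125180 is lowest in controls, and control replicate 2 is the lowest control for every model.

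The 3 models named CETN2 did not move together. Those on scaffolds 50694 and 125180 start beside models of NSDHL, a sterol synthesis gene, and that on 88765 beside BBS12. They may thus not be copies of a single gene, which was not tested. The most abundant, on scaffold 88765 (2650400 to 2661947, plus strand), had 219 and 274 CPM in Foxj1 CRISPR caps, 371 and 374 CPM in Foxn4 CRISPR caps, 433 and 263 CPM in Foxn4 morpholino caps, and 324, 110.1 and 320.4 CPM in controls. Control replicate 2 stood well below every other library, and the Foxn4 CRISPR group was the only one whose libraries all lay above the controls. No comparison called this model: the log2 fold change was -0.028 ± 0.42 in Foxj1 CRISPR caps (95% interval -0.95 to 0.89), 0.57 ± 0.41 in Foxn4 CRISPR caps (-0.35 to 1.48) and 0.47 ± 0.41 in Foxn4 morpholino caps (-0.45 to 1.38), with adjusted p of 0.965, 0.333 and 0.375. On leaving out control replicate 2 these became -0.38, 0.21 and 0.098, again not called. Its start is shared with BBS12, a gene for a chaperonin-like Bardet-Biedl protein on the other strand, whose span overlaps it by 138 bp. Even so, 99.2 to 100% of the reads counted here matched this CETN2 model alone.

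The CETN2 model on scaffold 125180 (1046907 to 1056837, minus strand) is a minor one. It had 14.1 and 14.7 CPM in Foxj1 CRISPR caps, 17.1 and 17.6 CPM in Foxn4 CRISPR caps, 12.1 and 14.3 CPM in Foxn4 morpholino caps, and 7.93, 6.43 and 7.57 CPM in controls. Every perturbed library lay above every control. It rose in all 3 groups: by 0.98 ± 0.24 on the log2 scale in Foxj1 CRISPR caps (adjusted p = 0.0101), 1.25 ± 0.24 in Foxn4 CRISPR caps (adjusted p = 0.00657) and 0.85 ± 0.24 in Foxn4 morpholino caps (adjusted p = 0.0172). These calls depend on how reads shared between models were counted. The files give 684 to 2502 reads matching this model in the perturbed libraries, against 235 to 268 in the controls, although the controls were the deeper libraries. From these, the authors' counter assigned it 8.0 to 20.8% of the matching reads in perturbed libraries and 47.8 to 49.3% in controls. Counted from uniquely matching reads alone, 68 to 135 per library, the log2 fold changes were 0.41, 0.62 and 0.50 in the Foxj1 CRISPR, Foxn4 CRISPR and Foxn4 morpholino groups and none was called (adjusted p = 0.265, 0.135 and 0.173). The calls were also lost without either replicate of Foxj1 CRISPR (adjusted p = 0.0665 and 0.0681) or of Foxn4 CRISPR (0.0535 and 0.0564) in their own comparisons, and without replicate 2 of the morpholino group (0.0837).

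The remaining CETN2 model, on scaffold 50694 (579005 to 589438, plus strand), was the only member whose Foxn4 CRISPR and Foxn4 morpholino libraries lay on opposite sides of the controls by estimated counts, and by uniquely matching reads the fold changes of these 2 groups had the same sign. It had 51.7 and 49.5 CPM in Foxj1 CRISPR caps, 57.6 and 57.9 CPM in Foxn4 CRISPR caps, 134 and 88.4 CPM in Foxn4 morpholino caps, and 80.8, 70.3 and 79.6 CPM in controls. The Foxj1 and Foxn4 CRISPR libraries lay below all controls and the morpholino libraries above them. None of these differences from control was called, with log2 fold changes of -0.60 ± 0.24 (adjusted p = 0.0649), -0.41 ± 0.24 (0.221) and 0.53 ± 0.23 (0.0823) in Foxj1 CRISPR, Foxn4 CRISPR and Foxn4 morpholino caps. Between 20.9 and 36.8% of its estimated reads were unique to it, and from unique reads alone the log2 fold changes over control were -0.075, 0.20 and 0.47 in Foxj1 CRISPR, Foxn4 CRISPR and morpholino caps, so that the Foxn4 CRISPR value turned sign and none was called (adjusted p = 0.838, 0.608 and 0.153). The sum over the 3 models named CETN2, which may cover more than a single gene, was not called in any comparison. It came to 293 and 349 CPM in Foxj1 CRISPR caps and 456 and 459 CPM in Foxn4 CRISPR caps. In Foxn4 morpholino caps it was 594 and 378 CPM, and in controls 412, 191 and 410 CPM.

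CETN3, centrin-3, was read from a pair of models whose summed level did not pass the test but whose shares in the perturbed libraries did not overlap those in the controls. The model on scaffold 1187 (6231672 to 6240504, plus strand) had 167 and 219 CPM in Foxj1 CRISPR caps, 170.2 and 279 CPM in Foxn4 CRISPR caps, 250.1 and 149 CPM in Foxn4 morpholino caps, and 189, 74.4 and 310.2 CPM in controls. The model on scaffold 32212 (46109 to 57961, plus strand) had 61.3 and 100.1 CPM in Foxj1 CRISPR caps, 51.9 and 98.4 CPM in Foxn4 CRISPR caps, 125 and 68.6 CPM in Foxn4 morpholino caps, and 167, 64.0 and 239 CPM in controls. Groups overlapped for both models, control replicate 2 being the low one among its group. The scaffold 1187 model had log2 fold changes of 0.015 ± 0.49, 0.23 ± 0.49 and 0.061 ± 0.49 in Foxj1 CRISPR, Foxn4 CRISPR and Foxn4 morpholino caps, none called. All 3 turned negative on leaving out control replicate 2, to -0.36, -0.15 and -0.34, and again none was called. The scaffold 32212 model had -0.96 ± 0.52, -1.06 ± 0.53 and -0.69 ± 0.52, with adjusted p of 0.167, 0.166 and 0.295. With control replicate 2 left out the values of the scaffold 32212 model were -1.32, -1.42 and -1.08 and all were called lower (adjusted p = 0.0238, 0.0290 and 0.0478). With all libraries but uniquely matching reads alone, the value in Foxj1 CRISPR caps was -1.57 and was called (adjusted p = 0.0399), while those in Foxn4 CRISPR and morpholino caps were -1.69 and -0.66 and were not (adjusted p = 0.0516 and 0.327).

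Expressed as a share of all CETN3 reads in the same library, which leaves out differences in depth and in total CETN3, the scaffold 1187 model took 68.7 to 73.1% in Foxj1 CRISPR caps, 73.9 to 76.6% in Foxn4 CRISPR caps, 66.7 to 68.4% in Foxn4 morpholino caps and 53.1 to 56.5% in controls. Every perturbed library lay above every control, control replicate 2 included. Among uniquely matching reads the shares were 75.5 to 78.7%, 77.5 to 84.6%, 62.6 to 65.1% and 56.7 to 60.0% in the same order, and the groups with and without a perturbation again did not overlap. An exact 2-sided permutation test of 2 libraries against 3 gave p = 0.2 in each comparison with control, the smallest it allows. Only 23.8 to 41.7% of the estimated reads of the scaffold 1187 model and 16.2 to 33.3% of those of the scaffold 32212 model were unique. The controls came from an earlier study. For the minor CETN2 model the share of matching reads assigned to it also differed between controls and perturbed libraries. How many of the 7888 symbols with 2 or more models separate in this way was not counted. The separation is thus not read as particular to CETN3. The summed CETN3 level had log2 fold changes of -0.31 ± 0.49, -0.19 ± 0.49 and -0.20 ± 0.49 in Foxj1 CRISPR, Foxn4 CRISPR and Foxn4 morpholino caps (adjusted p = 0.637, 0.803 and 0.761).

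**Figure D2:**
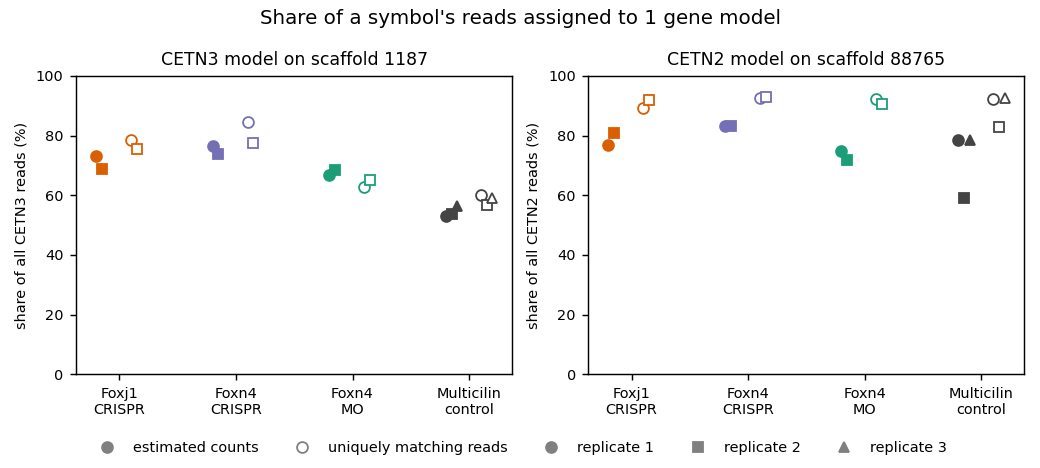
Share of a symbol's reads (y axis, %) assigned to the CETN3 model on scaffold 1187 (left) and the CETN2 model on scaffold 88765 (right) in each RNA library, by group; filled symbols are estimated counts, open symbols uniquely matching reads, and shapes mark replicates. For CETN3 the controls lie between 53.1 and 56.5% of estimated counts, below every perturbed library; for CETN2 control replicate 2, at 58.9%, lies below the rest.

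Gamma-tubulin was not called changed in any comparison. TUBG1 on scaffold 60603 (309430 to 339036, minus strand) had 111 and 109 CPM in Foxj1 CRISPR caps, 109 and 121 CPM in Foxn4 CRISPR caps, 92.2 ± 3.91 CPM (SD, n = 2) in Foxn4 morpholino caps, and 113, 26.6 and 128 CPM in controls. Leaving aside control replicate 2, the 8 libraries lay between 89.5 and 128 CPM. The log2 fold changes were 0.30 ± 0.49 in Foxj1 CRISPR caps (95% interval -0.78 to 1.39), 0.37 ± 0.49 in Foxn4 CRISPR caps (-0.72 to 1.45) and 0.049 ± 0.49 in Foxn4 morpholino caps (-1.04 to 1.14), with adjusted p of 0.648, 0.617 and 0.944. On leaving out control replicate 2 they were -0.12, -0.064 and -0.40, all 3 with the other sign and none called. The TUBG1 model on scaffold 299261 (13498 to 37695, plus strand) was close to silent. It had 0.289 and 1.55 CPM in Foxj1 CRISPR caps, 1.81 and 1.90 CPM in Foxn4 CRISPR caps, 0.786 and 1.52 CPM in Foxn4 morpholino caps, and 0.825, 0 and 2.24 CPM in controls, where a count of 0 allows up to 0.169 CPM. It rested on 0 to 15 unique reads per library, and no difference was detectable at this depth.

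**Figure D3:**
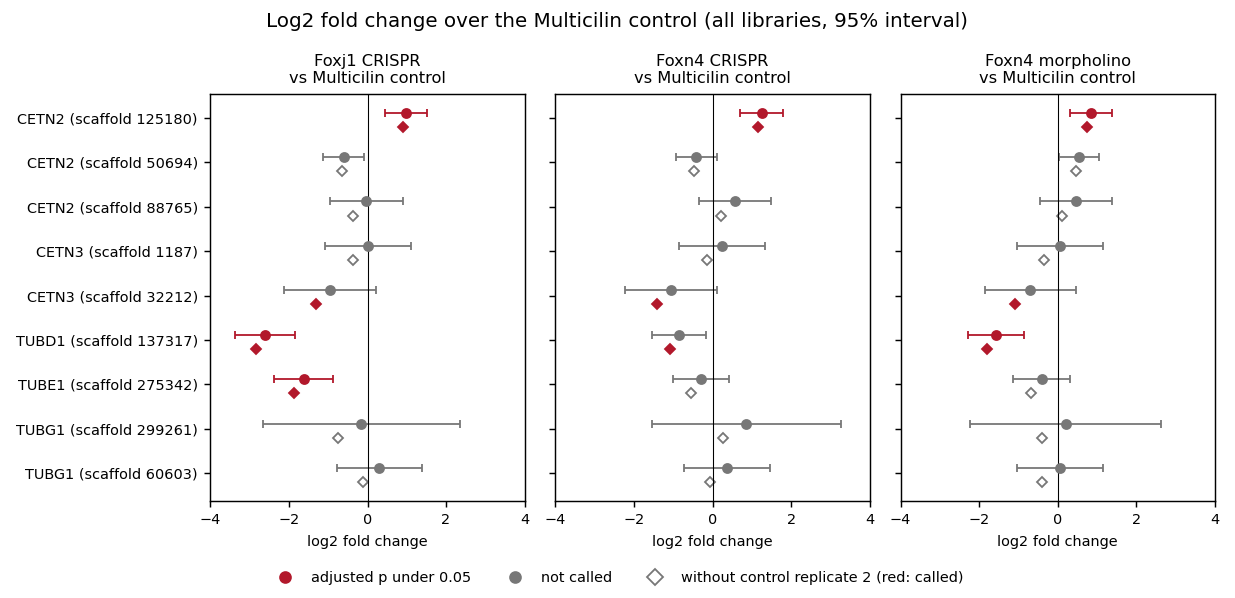
Log2 fold change over the Multicilin control (x axis) of each gene model (y axis) in Foxj1 CRISPR, Foxn4 CRISPR and Foxn4 morpholino caps; circles and bars are the edgeR estimates and 95% intervals over all 9 libraries, diamonds the estimates without control replicate 2, and red marks an adjusted p under 0.05. TUBD1 lies at -2.61 and TUBE1 at -1.63 in Foxj1 CRISPR caps, and of the estimates drawn for CETN3 on scaffold 32212 those without control replicate 2 are called.

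Against the control, 3 of the 9 models were called in Foxj1 CRISPR caps (1 higher, 2 lower), where 40.5% of all models tested were called (19.8% higher, 20.7% lower). In Foxn4 CRISPR caps 1 of 9 was called, higher, against 23.2% of all models (12.6% higher, 10.7% lower). In Foxn4 morpholino caps 2 of 9 were called (1 higher, 1 lower), against 45% of all models (23.9% higher, 21.1% lower). These counts were under the background share with all libraries. The median log2 fold change of the 9 members was -0.16, 0.23 and 0.06 in Foxj1 CRISPR, Foxn4 CRISPR and Foxn4 morpholino caps, against 0.01, -0.03 and 0.08 over all models. With control replicate 2 left out, 4, 3 and 3 of the 9 were called in the same 3 groups, against 43.6%, 26.7% and 47.6% of all models, so that the first 2 counts then lay slightly above the background share. In Foxn4 CRISPR caps the count was 0 without either Foxn4 CRISPR replicate.

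The perturbed groups were then compared with each other, libraries of the same study. TUBD1 was higher in Foxn4 CRISPR than in Foxj1 CRISPR caps, by 1.76 ± 0.35 on the log2 scale (adjusted p = 0.0393), a 3.38-fold difference. It was the only member called there (1 of 9, against 1.45% of all models, 1.43% higher and 0.021% lower). The call was lost on leaving out any 1 of 7 libraries, including both of each group compared, both morpholino libraries and control replicate 1 (adjusted p = 0.0617 to 0.491), while the log2 difference stayed at 1.56 to 1.98, and kept without control replicate 2 or 3. TUBE1 differed in the same direction by 1.33 ± 0.36 (adjusted p = 0.124) with no overlap of the groups, and was called without control replicate 2 (adjusted p = 0.0271).

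In Foxn4 morpholino against Foxj1 CRISPR caps, CETN2 on scaffold 50694 was higher by 1.14 ± 0.26 (adjusted p = 0.0287), the only call among the 9 (7.4% of all models were called, 4.7% higher and 2.7% lower). That call was lost with uniquely matching reads (log2 0.55, adjusted p = 0.268) and without either replicate of Foxj1 CRISPR (adjusted p = 0.160 and 0.193) or of Foxn4 CRISPR (0.0655 and 0.0603), or without morpholino replicate 1 (0.139). TUBD1 was higher by 1.05 ± 0.35 (adjusted p = 0.0953) and TUBE1 by 1.22 ± 0.36 (adjusted p = 0.0669), neither of them called with all libraries. With control replicate 2 left out the adjusted p were 0.0366 and 0.0199.

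Between the morpholino and the guide against foxn4, 0 of the 9 models were called by edgeR (5.47% of all models were, 2.65% higher and 2.82% lower), 1 had an unadjusted p under 0.05, and DESeq2 called 1. In each case that model was CETN2 on scaffold 50694, higher in morpholino than in Foxn4 CRISPR caps by 0.95 ± 0.26 on the log2 scale (adjusted p = 0.0611). It was called by edgeR without control replicate 2 (0.0438) or morpholino replicate 2 (0.0377). From uniquely matching reads alone the log2 difference of this model was 0.27 (adjusted p = 0.576), not called, so its size depends on how shared reads were assigned. TUBD1 had a log2 difference of -0.71 ± 0.34 (adjusted p = 0.236, 95% interval -1.47 to 0.05), with both morpholino libraries below both Foxn4 CRISPR libraries. TUBE1 had -0.11 ± 0.35 (95% interval -0.89 to 0.66).

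**Figure D4:**
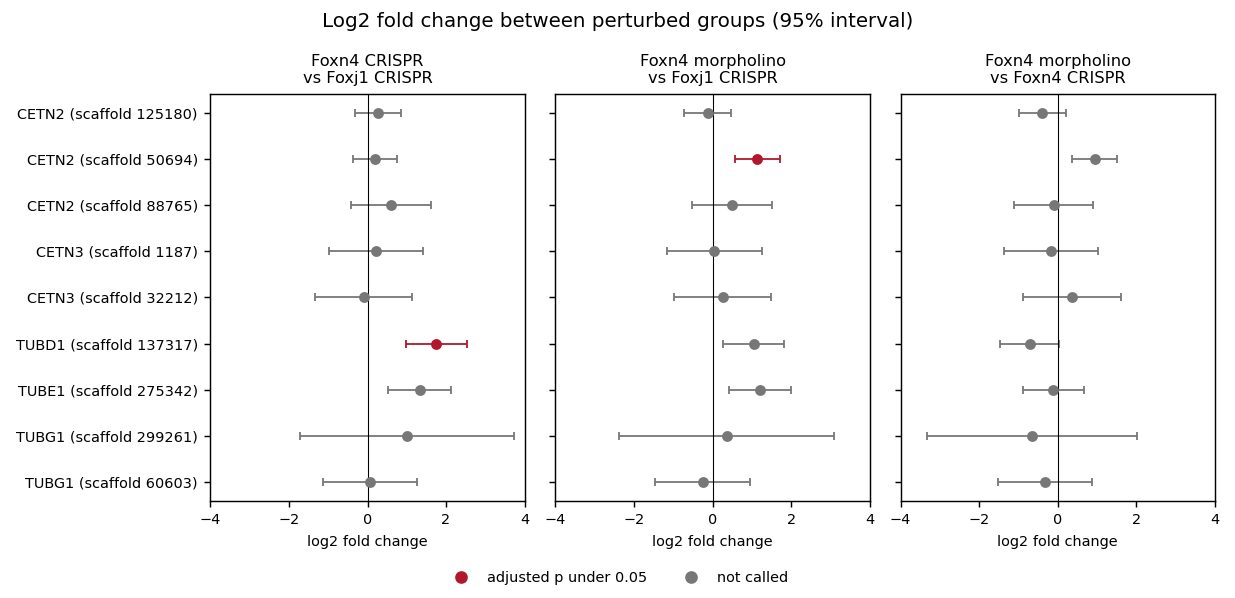
Log2 fold change (x axis) of each gene model (y axis) between perturbed groups, edgeR estimates with 95% intervals; red marks an adjusted p under 0.05. TUBD1 is called in Foxn4 CRISPR against Foxj1 CRISPR caps at 1.76 and CETN2 on scaffold 50694 in Foxn4 morpholino against Foxj1 CRISPR caps at 1.14.

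Per kilobase of model, the median CPM over the 9 libraries ran in the order CETN2 on scaffold 88765 (309.6), CETN3 on 1187 (283), CETN3 on 32212 (78.8), CETN2 on 50694 (55.4), TUBG1 on 60603 (49.0), TUBE1 (22.1), TUBD1 (10.6), CETN2 on 125180 (5.27) and TUBG1 on 299261 (0.814). The ranges over libraries of neighbours in this order overlapped, except for the last pair. The first place is not settled: by the authors' TPM, which also allows for model length, CETN3 on 1187 had the higher median, 732 against 613. The rare tubulins were thus well under the leading centrin models, and in Foxj1 CRISPR caps TUBD1 fell to 3.43 CPM per kilobase, under the minor CETN2 model at 5.38.

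Known partners of these proteins were read from lists of gene symbols. For each list and comparison, the genes named below are those called with the largest rise and fall. A gene not named for a group may also have changed there. Against control, 40.5%, 23.2% and 45% of all models were called in Foxj1 CRISPR, Foxn4 CRISPR and morpholino caps. Of 19 tested models of centrin partners, 2 rose, 2 fell and 15 were not called in Foxj1 CRISPR caps, with a median log2 fold change of -0.20. In Foxn4 morpholino caps 2 of them rose and 17 were not called. In Foxn4 CRISPR caps edgeR called 0 of 19, with 3 at an unadjusted p under 0.05 and 0 by DESeq2. XPC, the DNA damage sensor that binds centrin-2, rose in Foxj1 CRISPR caps to 36.6 ± 1.98 CPM (SD, n = 2), against 17.2 ± 4.07 CPM in controls (SD, n = 3; log2 1.09, adjusted p = 0.00688). ENY2 on scaffold 160942, a TREX-2 subunit, fell to 13.2 ± 0.521 CPM in Foxj1 CRISPR caps, against 42.5 CPM in controls (log2 -1.69 ± 0.33, adjusted p = 0.00322). The other ENY2 model, on scaffold 63404, was higher in morpholino than in Foxj1 CRISPR caps (log2 1.24, adjusted p = 0.0211) and than in Foxn4 CRISPR caps (log2 1.09, adjusted p = 0.0396). PCID2, another TREX-2 subunit, rose in morpholino caps to 34.7 ± 6.32 CPM, against 13.6 ± 2.08 CPM in controls (log2 1.35, adjusted p = 0.00196). With control replicate 2 left out, 9 centrin-partner models were lower in Foxj1 CRISPR and 9 in morpholino caps, and in Foxn4 CRISPR caps 2 were higher and 1 lower. With the 3 that were higher in Foxj1 CRISPR and in morpholino caps, 12 of 19 were called in each, where 43.6% and 47.6% of all models were.

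Of the proteins that work with delta- and epsilon-tubulin, 2 models were measured. C14orf80, known in human as the delta- and epsilon-tubulin complex component TEDC1, fell in Foxj1 CRISPR caps to 30.0 ± 1.14 CPM, against 54.3 ± 20.7 CPM in controls (log2 -0.86 ± 0.31, adjusted p = 0.0462). No other comparison called either model by edgeR, DESeq2 or at an unadjusted p under 0.05.

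Around gamma-tubulin, 33 models of its ring complex, anchors and the augmin complex were tested. In Foxj1 CRISPR caps 5 rose, 11 fell and 17 were not called (median log2 -0.57). In Foxn4 CRISPR caps 2 rose, 6 fell and 25 were not called (median -0.28). In morpholino caps 5 rose, 10 fell and 18 were not called (median -0.46). These counts lay near the share of all models called in either direction, 40.5%, 23.2% and 45% in the same order. By direction, 20.7%, 10.7% and 21.1% of all models fell and 19.8%, 12.6% and 23.9% rose. The falls in this list thus lay above that share in each group, and the rises under it. With control replicate 2 left out, 5, 2 and 7 rose and 15, 8 and 14 fell. At that setting 43.6%, 26.7% and 47.6% of all models were called in either direction, and the share that fell was not counted. HAUS6, an augmin subunit, rose in Foxj1 CRISPR caps (14.8 ± 0.336 CPM, against 3.40 ± 0.115 CPM in controls, adjusted p = 0.00121) and in Foxn4 CRISPR caps (17.7 ± 0.792 CPM, adjusted p = 0.00146). HAUS7 of the same complex rose in morpholino caps (log2 1.80, adjusted p = 0.000864). AKAP9, a large scaffold of the centrosome and Golgi, fell to 46.2 ± 20.0 CPM in Foxj1 CRISPR caps, against 854 ± 402 CPM in controls (log2 -4.21 ± 0.52, adjusted p = 0.000358). It was also higher in Foxn4 CRISPR than in Foxj1 CRISPR caps (log2 2.65, adjusted p = 0.0311). NEDD1, which recruits the ring complex to centrosomes, fell in Foxn4 CRISPR caps (4.57 ± 2.72 CPM) and morpholino caps (3.05 ± 0.417 CPM), against 24.9 ± 10.3 CPM in controls (adjusted p = 0.00604 and 0.00104).

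Of 38 models for centriole assembly and appendage proteins, 1 rose and 11 fell in Foxj1 CRISPR caps (median log2 -0.61), 1 rose and 4 fell in Foxn4 CRISPR caps (median -0.11), and 3 rose and 12 fell in morpholino caps (median -0.57). This count depends on control replicate 2: with it left out 26, 13 and 25 of 38 fell and 1, 1 and 3 rose. At that setting 43.6%, 26.7% and 47.6% of all models were called in either direction. The share of all models that fell was not counted at that setting. With all libraries it was 20.7%, 10.7% and 21.1%. SASS6, the cartwheel protein of new centrioles, rose in all 3 groups (log2 1.43, 1.21 and 1.46 in Foxj1 CRISPR, Foxn4 CRISPR and morpholino caps, adjusted p = 0.00698, 0.0254 and 0.00563). CCDC78, a deuterosome protein, fell in Foxj1 CRISPR caps to 24.1 ± 19.0 CPM, against 468 ± 113 CPM in controls (log2 -4.28 ± 0.57, adjusted p = 0.000499), and was higher in Foxn4 CRISPR and morpholino caps than in Foxj1 CRISPR caps (log2 3.53 and 2.17, adjusted p = 0.0192 and 0.0383). Of the distal appendage proteins, CEP164 fell in Foxn4 CRISPR caps (log2 -2.08, adjusted p = 0.00697) and FBF1 in morpholino caps (log2 -2.85, adjusted p = 0.000735). FBF1 was also lower in morpholino than in Foxj1 CRISPR caps (log2 -1.63, adjusted p = 0.0430).

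Markers of cell states were counted in the same groups, and their part in the members' results was not tested. Of all models tested against control, 20.7%, 10.7% and 21.1% were lower in Foxj1 CRISPR, Foxn4 CRISPR and morpholino caps. In the same order 19.8%, 12.6% and 23.9% were higher. Counts near or under these shares, as for epidermal and basal models in the CRISPR groups, are not read as a change. Of 27 multiciliated models, 18 were lower in Foxj1 CRISPR caps, 4 in Foxn4 CRISPR caps and 16 in morpholino caps, with 2, 1 and 2 higher. Of 46 cell-cycle models, 19 were higher in Foxj1 CRISPR, 14 in Foxn4 CRISPR and 25 in morpholino caps, with 3 lower in each. Summed cell-cycle levels of the perturbed groups lay within the range of the controls, at 2867 to 3167 CPM, 2470 to 2631 CPM and 2846 to 2883 CPM in the same 3 groups and 1509 to 3677 CPM in controls. The median log2 deviation of the 46 models did not overlap, at 0.048 to 0.62 over the perturbed libraries and -0.84 to -0.44 in controls. Of 21 secretory-cell models, 8, 6 and 10 were lower and 4, 3 and 4 higher in Foxj1 CRISPR, Foxn4 CRISPR and morpholino caps, and their summed level was 1992 to 3599 CPM over the perturbed libraries, against 6017 to 15948 CPM in controls, with TPH1 at 0 in Foxj1 CRISPR caps. The median log2 deviation of these 21 models overlapped, at -0.61 to 0.24 over the perturbed libraries and 0.18 to 0.52 in controls. Of 23 ionocyte models, 8, 1 and 18 were lower and 5 higher in each group. Of 34 epidermal and basal models, 5, 5 and 11 were lower and 4 higher in each. Neural markers were higher for 14, 12 and 15 of 22 models and lower for 2, 2 and 3, and summed to 287 to 480 CPM in perturbed libraries, against 81.9 to 164 CPM in controls, with NEUROG1 at 0 in every group but Foxn4 CRISPR and SOX10 at 0 in Foxj1 CRISPR caps. Of 12 mesoderm models 7, 6 and 4 were higher and 2, 2 and 3 lower, with summed levels of 9.90 to 53.2 CPM over all libraries and MYF5 and CHRD at 0 in morpholino caps.

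The models whose log2 CPM followed each member most closely over the 9 libraries were named by Pearson's r, as a description, since libraries of a group share their treatment. For TUBD1 they were KRT36 (r = 0.995), RFFL (0.992) and SPATA18 (0.992), and for TUBE1 UBXN10 (0.983), SPATA13 (0.979) and XRCC6 (0.978). CETN2 on scaffold 88765 was followed by KIAA1009 (0.964), CENPJ (0.961) and SBNO1 (0.949), and CETN3 on 1187 by YAF2 (0.958), MZT1 (0.929) and ARL1 (0.918). CENPJ is the centriole-length protein CPAP and MZT1 is a small subunit of the gamma-tubulin ring complex. CETN3 on 32212 was followed by CENPA (0.919), RASGEF1A (0.907) and TSPAN3 (0.896). TUBG1 on 60603 was followed by KIAA0753 (0.983), ALMS1 (0.969) and NCAPH2 (0.967). CETN2 on 50694 was followed by FAM117B (0.975), NUS1 (0.974) and RNF34 (0.972), and CETN2 on 125180 by TIMP4 (0.992), FGFR1 (0.988) and DTNA (0.984).

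The authors' deposited tables give log2 values as control over perturbed, so a positive value means less transcript in the perturbed caps. The authors' names for both Foxn4 comparisons give 3 Multicilin libraries, without saying which. For Foxj1 the number is not given in the sources used here, and the control libraries may not be the same 3 as above. For Foxj1, the authors' deposited table has TUBD1 at 2.67 (adjusted p 1.93e-05) and TUBE1 at 1.83 (adjusted p 0.00500). For the foxn4 morpholino the authors' deposited table has TUBD1 at 2.12 (adjusted p 0.00315), and for the foxn4 guide 1.06 (adjusted p 0.215). CETN2 on scaffold 125180 was not called in the authors' deposited tables, at -0.76 for Foxj1, -0.92 for the foxn4 guide and 0.11 for the morpholino (adjusted p 0.290, 0.187 and 1). No other member passed an adjusted p of 0.05 in the authors' deposited tables.

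Foxn4 peaks were found at the starts of these genes, as at those of many others. With Multicilin, 7 of the 9 models had a peak centred within 1000 bp of their start, where 31.4% of all models did. With Foxn4 alone 9 of 9 did, where 53.3% of all models did. Among models with a mean of 5 CPM or more, the background was 47.2% with Multicilin and 72.1% for Foxn4 alone. With 1 library each, no test was made, and 7 models had a peak in both lists. Every such peak centre lay within 140 bp of the annotated start. The peak heights below are the authors' tags scaled to a library of 10000000. Scaling does not allow for enrichment: 33.51% of tags lay in peaks for Foxn4 alone, against 11.86% with Multicilin. A lower height in 1 list than in the other thus does not show weaker binding.

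The tallest peak at a member start was at CETN2 on scaffold 88765, centred 30 bp inside the model in caps given Multicilin. It held 148.6 scaled tags, 35.15 times the input, and ranked 535th of 29673 peaks in that list, in its top 1.80%. In caps given Foxn4 alone the peak there held 89.3 scaled tags and ranked 8806th of 65258, below those of both CETN3 models and of CETN2 on 125180. By fold over input the CETN3 peak on 32212 with Multicilin exceeded that at CETN2 on 88765, at 94.37 times. This ratio depends on input tags, which were not examined here. The peak at CETN3 on 32212 held 99.8 scaled tags with Multicilin (rank 1549) and 105.6 for Foxn4 alone. That at CETN3 on 1187 held 44.8 with Multicilin and 105.6 alone. For Foxn4 alone both CETN3 peaks also had rank 6822 and lay 96 bp from the start, and shared reads were not examined. The peaks at CETN2 on 125180 held 30.5 scaled tags with Multicilin and 100.2 alone, those at CETN2 on 50694 42.8 and 81.2, and those at TUBE1 30.5 and 74.4.

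TUBD1 and the near-silent TUBG1 model were the members without a start peak in caps given Multicilin. For Foxn4 alone TUBD1 had a low start peak of 27.1 scaled tags, 88 bp inside the model, at rank 35468 of 65258. A taller peak lay inside the TUBD1 span, 6075 bp from the TUBD1 start for Foxn4 alone (116.4 scaled tags, 36.7 times the input). With Multicilin it lay 6068 bp from that start (65.1 scaled tags, 20.54 times the input). RPS6KB1, on the opposite strand, starts inside the TUBD1 span, 2975 bp from the TUBD1 start. The peak is nearer to the RPS6KB1 start, so it cannot be given to TUBD1 alone. The peak spans 1541838 to 1542114 on scaffold 137317 in the list with Multicilin. The files give the span of each model and not its exons, so whether this peak is exonic or intronic is not stated here. TUBG1 on 60603 had low start peaks of 26.5 scaled tags with Multicilin and 14.9 alone, and TUBG1 on 299261 21.7 for Foxn4 alone.

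Several of these starts belong to gene pairs that face away from each other, so their peaks cannot be given to 1 gene. BBS12 starts 137 bp from CETN2 on 88765, and FAM134C starts 11 bp from TUBG1 on 60603. An NSDHL model, a sterol synthesis gene, starts 39 bp from CETN2 on 125180, and a second NSDHL model starts 121 bp from CETN2 on 50694. Among these partners FAM134C rose in Foxj1 CRISPR, Foxn4 CRISPR and morpholino caps (log2 1.68, 1.24 and 1.43, adjusted p = 0.00189, 0.0160 and 0.00373), while TUBG1 beside it was not called. The NSDHL model beside CETN2 on 50694 rose in Foxn4 CRISPR and morpholino caps (log2 1.14 and 1.60, adjusted p = 0.0266 and 0.00282). CETN2 on 88765, which had more scaled tags at its start than any other member in caps given Multicilin, was not called in any comparison. TUBD1 fell in Foxj1 CRISPR and morpholino caps. In caps given Multicilin TUBD1 had no start peak, and the peak of 65.1 scaled tags inside its span lay nearer to the RPS6KB1 start. Any link between peaks and transcript levels was not tested.

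**Figure D5:**
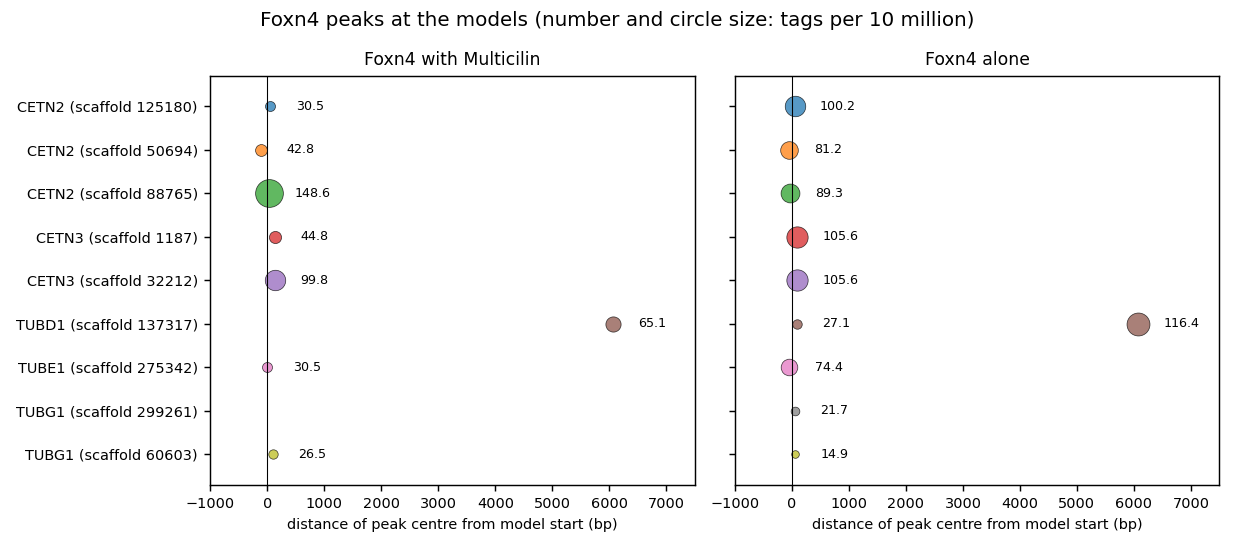
Foxn4 peaks near each gene model (y axis) in caps given Foxn4 with Multicilin (left) and Foxn4 alone (right), by distance of the peak centre from the model start in bp (x axis); circle diameter and the number beside it give tags per 10000000. Start peaks lie within 140 bp of the start, CETN2 on scaffold 88765 has 148.6 tags with Multicilin, and TUBD1 has a peak inside its span in both lists, 6068 and 6075 bp from the start.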

How the data were processed

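RNA was poly-A selected and the libraries were not stranded, per the labels' protocols. Each deposited RNA file gives a gene model's estimated count, its count of uniquely matching and of all matching reads, and its TPM; the authors' estimated counts divide a read among the models it matches. Gene models are the Mayball set on the v7.1 scaffolds, as the series' design text states. Tools named in the submitters' processing notes are STAR, eXpress, DESeq, HOMER and Bowtie2, without versions. From the authors' deposited comparison tables, the log2 values and the p-values (raw and adjusted) were used, and their sign was read from the correlation with the fold changes computed here over all models (r = -0.92 to -0.98). HOMER called peaks in each ChIP library on its own at a false discovery rate of 0.001, requiring 4 times the tags of the input and of the surrounding 10000 bp, per the file headers; both runs used the same input, from Myb with Multicilin caps. For each peak the authors' list holds a raw tag count, a scaled tag signal, a p-value and a ratio giving its fold over input. Whether a peak is near a start was decided from the distance between its centre and the start of the model.

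Estimated counts were rounded and fitted with edgeR 4.0.16 in R 4.3.3 (TMM, filterByExpr by group, quasi-likelihood test, all 9 libraries in 1 fit with 5 residual degrees of freedom). The fit was tested on simulated counts with known changes. The 519 models without a symbol, 1.70 to 2.43% of counts, stayed in the fit. Uniquely matching reads were 62.7 to 69.1% of counts. The first principal component, 53.4% of the variance, set the controls apart from the rest. Named genes are the members; per pathway list and comparison, the called models of mean CPM 5 or more with the largest rise and fall; and the 3 models most like each member. Members, lists and tests were chosen with earlier results of these data known. Alternatives were DESeq2 1.42.0, other scaling, filters, count columns and sample sets, a replicate block and each library left out; the list counts without control replicate 2 were added after seeing the data. The 6 ChIP input libraries were not analysed here.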

Additional observations from a re-analysis of the deposited data

How the results depend on the processing

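The falls of TUBD1 in Foxj1 CRISPR and Foxn4 morpholino caps and of TUBE1 in Foxj1 CRISPR caps kept their direction and call under all 18 alternatives run for each, at log2 -2.84 to -2.36, -1.94 to -1.32 and -1.87 to -1.33. The number of the 9 members called moved as follows, and the cause was not tested. In Foxn4 CRISPR caps against control it was 1, but 2 with DESeq2 or all matching reads and 0 with uniquely matching reads. In morpholino caps against control it was 2, but 1 with uniquely matching reads or with only the groups compared. In Foxn4 CRISPR against Foxj1 CRISPR caps it was 1, but 2 with DESeq2 or only the groups compared and 0 with the replicate block. In morpholino against Foxj1 CRISPR caps it was 1, but 2 with DESeq2 or all matching reads and 0 with uniquely matching reads or only the groups compared. In morpholino against Foxn4 CRISPR caps it was 0, but 1 with DESeq2 or all matching reads. On leaving out 1 library at a time these counts ranged from 0 to 3, 2 to 3, 0 to 2, 0 to 3 and 0 to 1 in that order, and from 2 to 4 in Foxj1 CRISPR caps against control, where 3 were called with all libraries. CETN2 on scaffold 125180 reversed from 0.98 to -0.072 in Foxj1 CRISPR caps against control when the CETN2 models were summed, by construction because the larger models set the sum, and from -0.13 to 0.71 (adjusted p = 0.0240) in morpholino against Foxj1 CRISPR caps with all matching reads. With all matching reads its log2 fold changes over control were 2.17, 2.35 and 2.88 in Foxj1 CRISPR, Foxn4 CRISPR and morpholino caps. Of the comparisons of single models with their alternatives, 841 kept direction and call, 79 changed sign with neither value called, 23 gained a call, 27 lost one and the 2 above changed sign with one of the values called. Same-numbered deviations correlated at 0.515 between the CRISPR groups, at 0.174 between Foxj1 CRISPR and morpholino, at 0.0919 between Foxn4 CRISPR and morpholino, and at -0.142 to -0.0169 between these groups and the controls of the earlier study. Not every pair passed 0.1 and the labels give no shared source, so the numbers were not taken to pair the samples. With the replicate block TUBD1 in Foxn4 CRISPR against Foxj1 CRISPR caps had a log2 difference of 1.75 (adjusted p = 0.0797). That block also grouped the controls of the earlier study by number, so it is not a paired test of the CRISPR groups alone. The number of members with a start peak was 9 for Foxn4 alone under each alternative and 6 or 7 with Multicilin. The depth, with 91 to 1070 unique TUBD1 reads per library, limits small changes, and for TUBG1 on scaffold 299261 any change.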
